A study of Mus musculus with 4 samples.

Results

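A set of 10 genes was followed in the B cells of mouse blood: Bhlhe41, Nacc2, Cd59a, Ahnak2, Fah, Zcwpw1, Adm, Jchain, Lmo7 and Art3. They are 10 of the 14697 genes counted, and all 10 were found in the counts. They had been listed because earlier results of the same counts showed them in B cells that were more abundant in old blood. The B cell levels in old against young pools, and in cells without against cells with Fcer2a, are therefore what chose them. Those differences are described here without a test. B cells were taken as the cells with at least 3 UMIs of Cd79a and at most 1 UMI over Cd3d, Cd3e and Cd3g, which gave 9103 of 14588 cells. They were divided by Fcer2a into 2809 Fcer2a-positive cells (1 or more UMIs) and 6294 Fcer2a-negative cells (0 UMIs).

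Peripheral blood of female C57BL/6 mice was profiled in droplets, and transcripts were counted by the unique molecular identifiers (UMIs) that tag them. The young mice were 4 months and the old mice 24 months of age, with no allele or treatment named for either group. Each age was sampled as 2 pools of 2 mice, named young 1, young 2, old 1 and old 2, so n = 2 pools per age. Mice within a pool cannot be separated. Errors of the fitted log2 differences and their p-values rest on the spread between pool sums, whereas intervals of shares and levels cover counting error only.

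B cells carry the B cell receptor with its signalling partner Cd79a. Follicular B cells, the recirculating majority, carry the low-affinity IgE receptor CD23 that Fcer2a encodes, whereas B-1 cells, a self-renewing lineage that makes natural IgM, mostly lack it. Bhlhe41 is a transcription factor known for its place in the development and maintenance of B-1 cells. Jchain joins secreted IgM and IgA into polymers. B cells without CD23 are known to accumulate in aged mice.

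The B gate held 2031 and 2032 cells in young 1 and young 2, and 3489 and 1551 cells in old 1 and old 2. Median depth was 2120 and 2103 UMIs per B cell in the young pools against 3310 and 3357 in the old pools. Fcer2a-negative cells were 55.5% and 58.1% of young and 79.6% and 77.9% of old B cells, and a shallow cell can enter this gate by missing its Fcer2a UMI. With a random draw of 1000 UMIs kept from every cell (thinning), the shares were 75.2%, 76.2%, 89.9% and 89.9%. All 12 genes of a B cell identity list were present in every pool, at 8462 to 11024 CPM in sum (counts scaled to 1000000 UMIs of the pool's B cells). Platelet RNA differed between the ages in these cells: the 7 genes of a platelet list summed to 1.4 and 28.2 CPM in young B cells, where 4 and 2 of the genes were at 0, and to 672 and 403 CPM in old B cells. Red cell RNA was 15790 and 88557 CPM in the young and 52237 and 45331 CPM in the old pools. Any 2 pools shared 4 to 10 B cell barcodes.

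The 10 genes lie on 6 chromosomes in the mm10 (GRCm38) annotation of GENCODE, and each is an annotated protein-coding gene. Bhlhe41 spans chr6:145858243-145865558 on the minus strand, Nacc2 chr2:26055535-26123220 (minus) and Cd59a chr2:104095801-104115354 (plus). Ahnak2 spans chr12:112772194-112802657 (minus), Fah chr7:84585159-84606722 (minus) and Adm chr7:110627661-110629820 (plus). Jchain spans chr5:88519809-88527891 (minus), Art3 chr5:92331827-92414628 (plus), Zcwpw1 chr5:137787798-137822621 (plus) and Lmo7 chr14:101729957-101934710 (plus). Zcwpw1 overlaps Pilra on the other strand, and Bhlhe41, Nacc2 and Adm each overlap a predicted gene there (Gm43909, Gm13554 and Gm28863). Art3 overlaps Gm2673 on its own strand and Cxcl10 and Cxcl11 on the other strand, so its low counts are uncertain where the counting could assign reads of these genes.

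Because Bhlhe41 is a transcription factor that binds the E-box letters CACGTG and clock factors bind the same letters, the promoters of the 10 genes were searched for CACGTG, which reads the same on both strands. RefSeq windows of GRCm38.p6 reach from 250 bases before to 50 bases after a start site, and 15 windows matched the 10 genes. Of these, 1 held the letters, the promoter of Bhlhe41 itself at chr6:145865371-145865670 on the minus strand. It is printed with the letters in capitals, which start 153 bases before the start site.
Bhlhe41 promoter: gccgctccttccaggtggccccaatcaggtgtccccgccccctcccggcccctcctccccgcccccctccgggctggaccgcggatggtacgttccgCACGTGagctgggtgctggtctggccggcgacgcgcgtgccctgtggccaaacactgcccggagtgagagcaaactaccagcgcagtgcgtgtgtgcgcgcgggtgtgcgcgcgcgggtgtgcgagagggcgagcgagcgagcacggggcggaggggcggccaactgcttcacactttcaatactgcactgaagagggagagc
Over all 32851 RefSeq windows of this length 7.15% hold CACGTG. The Adm window holds no match to ACGTG on either strand, letters that 19.6% of all windows hold. A match is a description of the letters and not of binding.

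Transcripts of the 10 genes lay mostly in the B gate. Between 83.5% (Art3) and 93.7% (Ahnak2) of all UMIs of a gene came from B cells, which held 63.8% of the UMIs of all genes. T cells held between 0.199% and 2.16% of a gene's UMIs. Within B cells, 83.6% (Art3) to 95.2% (Adm) of the UMIs were in Fcer2a-negative cells, which were 69.1% of B cells. Old 1 held 44.8% of all B cell UMIs but 87.5% of those of Cd59a, 87.3% of Adm, 84.4% of Nacc2, 83.5% of Fah, 80.7% of Ahnak2, 74.4% of Zcwpw1 and 69.2% of Bhlhe41. The remaining 3 genes leaned to old 2, which held 76.7% of the B cell UMIs of Art3, 49.4% of Lmo7 and 48.9% of Jchain. The list thus falls into 7 genes led by old 1 and 3 led by old 2.

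In B cells as a whole, both old pools lay above both young pools for 7 of the 10 genes, and for Adm, Jchain and Art3 the ages overlapped. Among the 12297 genes tested in this comparison 22.9% had both old pools above. In Fcer2a-negative cells the same 7 genes did so (21.9% of all 11983 genes), and in Fcer2a-positive cells these 7 and Jchain did (16.6% of 10351 genes). Since the genes were chosen on this contrast, nothing is read from these counts. Less RNA per cell and fewer cells with the transcript cannot be told apart in such sums, so shares of positive cells are given beside them.

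**Figure D1:**
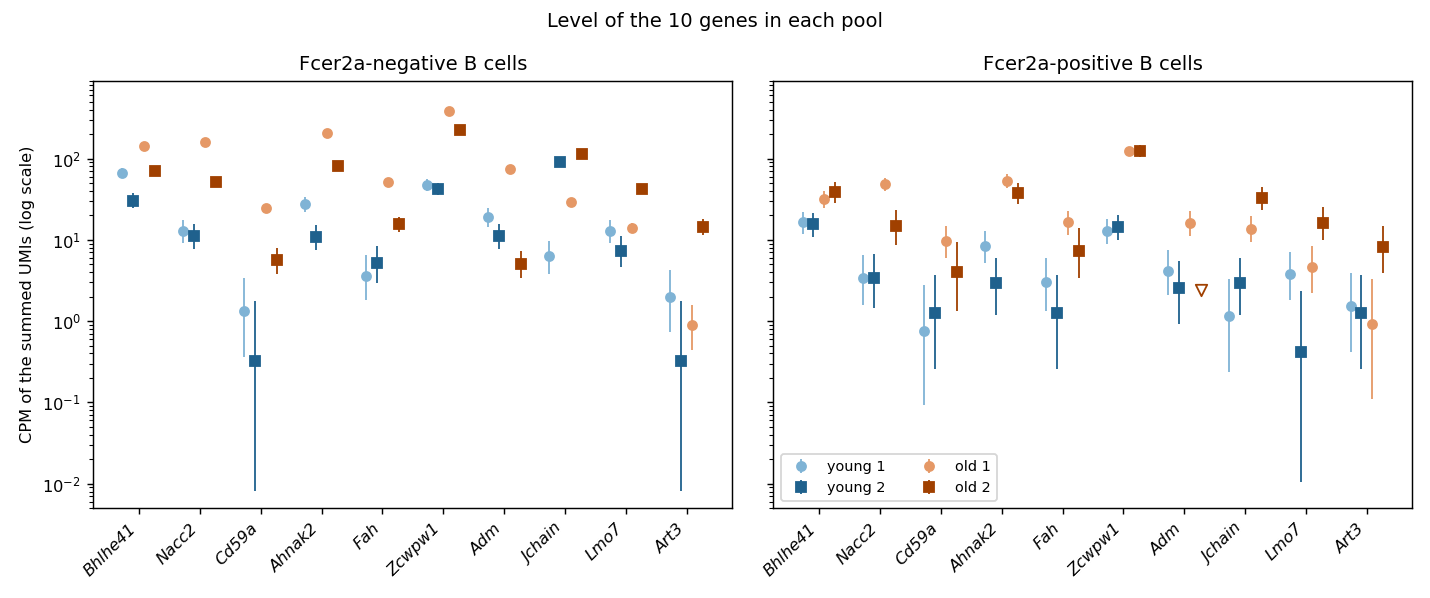
CPM (log scale) of the 10 genes in each pool, in Fcer2a-negative (left) and Fcer2a-positive (right) B cells. Points are UMI sums per pool, bars are exact 95% Poisson intervals that cover counting error only, and the open triangle marks the limit that 0 UMIs of Adm in old 2 allow (3 counts). Zcwpw1 stood at 389 and 228 CPM in old Fcer2a-negative cells against 47.2 and 42.4 CPM in young ones, while Adm in old 2 (5.1 CPM) lay below both young pools.

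Zcwpw1 encodes a reader of histone methylation known from meiosis. In Fcer2a-negative B cells it stood at 47.2 and 42.4 CPM in young 1 and young 2 and at 389 and 228 CPM in old 1 and old 2. Every old value lay far above every young value, and the fitted log2 difference (old minus young) was 2.85 ± 0.24 (SE, n = 2 pools per age, edgeR). In Fcer2a-positive cells the levels were 12.96 and 14.3 CPM in young and 123 and 124 CPM in old pools, and the old pools differed by less than their counting intervals there. At 1000 UMIs per cell, 1.77% and 1.27% of young and 18.2% (95% exact binomial interval 16.8 to 19.7%) and 11.2% (9.45 to 13.1%) of old Fcer2a-negative cells had a Zcwpw1 UMI. In T cells, which should lack B cell transcripts and show the background of free RNA, the shares were 0.331%, 1.24% and 2.22% in young 1, young 2 and old 1, and 0 of 171 cells in old 2 at this depth. With all UMIs kept they were 1.66%, 2.61%, 8.00% and 2.92% in T cells, against 3.81%, 3.05%, 38.6% and 28.1% in Fcer2a-negative B cells. Before thinning T cells had a median of 2576 to 2800.5 UMIs, above that of young and below that of old B cells. The T cell gate also asked for no Cd79a UMI. In myeloid cells (5 or more UMIs of Lyz2, no Cd79a and no Cd3) Zcwpw1 was found in 4.48% of 268 cells of old 1 at 1000 UMIs and in none of the other pools. Zcwpw1 was also abundant within single cells: 358 old 1 and 89 old 2 Fcer2a-negative cells held 5 or more UMIs, against 9 and 8 young cells, and the highest count was 31.

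Bhlhe41 stood at 67.0 and 30.5 CPM in young and 142 and 70.1 CPM in old Fcer2a-negative B cells. Old 2 was barely above young 1, so the ages came close to overlapping, with a log2 difference of 1.20 ± 0.40. Shares of positive cells were 4.61% (3.46 to 6.00%) in young 1, 2.03% in young 2, 11.3% in old 1 and 5.96% (4.69 to 7.45%) in old 2, where the intervals of young 1 and old 2 overlap. T cells showed 0.11%, 0.412% and 1.78% in young 1, young 2 and old 1 and none in old 2. Bhlhe41 was thus present in a small share of young B cells as well. Fcer2a-positive cells held 16.4 and 15.6 CPM in young and 31.7 and 38.3 CPM in old pools.

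Nacc2, which encodes a BTB-domain repressor of transcription, stood at 12.9 and 11.2 CPM in young and 162 and 51.0 CPM in old Fcer2a-negative B cells. Old 1 was far above old 2, and both lay above the young pools (log2 difference 3.21 ± 0.53). The shares of positive cells were 0.798% and 1.10% in young and 13.1% and 4.22% in old pools. T cells showed 1.21%, 0.412% and 1.33% in young 1, young 2 and old 1 and none in old 2 at this depth, and myeloid cells at most 1.09%. The intervals of young B cells and T cells overlapped. With all UMIs kept, Nacc2 stood at 11.8 and 5.1 CPM in T cells of young 1 and young 2. In young 1 this was above the 8.5 CPM of all B cells, so T cells are not taken as a background for Nacc2. Whether the young B cell shares are expression was not tested. In Fcer2a-positive cells Nacc2 was at 48.2 CPM in old 1, 14.7 CPM in old 2 and 3.4 CPM in both young pools.

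Ahnak2, a very large scaffold protein related to Ahnak, stood at 27.4 and 10.9 CPM in young and 206 and 80.7 CPM in old Fcer2a-negative B cells, a log2 difference of 2.98 ± 0.51. A UMI was found in 1.24% and 0.678% of young and 15.1% (13.8 to 16.5%) and 5.79% (4.54 to 7.26%) of old cells, and in no T cell or myeloid cell at this depth. With all UMIs kept, 1, 1, 5 and 0 T cells of young 1, young 2, old 1 and old 2 had an Ahnak2 UMI (2.22% in old 1). Lmo7, a LIM-domain protein of the actin cytoskeleton and cell junctions, had another order of pools. It stood at 12.9 and 7.4 CPM in young, 14.1 CPM in old 1 and 42.1 CPM in old 2. Old 1 therefore lay within the counting interval of young 1 (9.1 to 17.6 CPM), and old 2 alone stood apart, with 3.15% positive cells (2.24 to 4.29%) against 0.339% to 1.04% in the others. In T cells at this depth it was found in 0.585% of old 2, and with all UMIs kept in 0.221% of young 1 and 1.17% of old 2.

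Among the surface proteins, Cd59a encodes an inhibitor of the complement membrane attack complex. It had 4 and 1 UMIs in young Fcer2a-negative cells (1.3 and 0.32 CPM), 302 in old 1 (24.5 CPM) and 31 in old 2 (5.6 CPM). Positive cells were 2.41% (1.87 to 3.05%) in old 1 and 0.662% (0.286 to 1.30%) in old 2, against at most 0.177% in young pools and 0.137% in T cells. Of the myeloid cells of old 1, 1.12% had a Cd59a UMI. In old 2, 30 of 1208 Fcer2a-negative cells had one with all UMIs kept, against no T cell or myeloid cell. At 1000 UMIs the absence allows up to 1.75% of T cells and 1.49% of myeloid cells of old 2. Both limits exceed 0.662%, so the share in old 2 could not be separated from background at this depth. The sparse young counts of Cd59a give a log2 difference of 4.28 ± 0.94. Art3, of the ecto-ADP-ribosyltransferase family, was at 2.0, 0.32 and 0.89 CPM in young 1, young 2 and old 1 and at 14.4 CPM in old 2. Old 1 thus lay between the young pools, with 6, 1, 11 and 79 UMIs in the 4 pools. No Fcer2a-negative cell held more than 2 UMIs of Art3. Its share in old 2 at 1000 UMIs (0.662%) could not be separated from that in the 171 T cells of that pool (0.585%). At 2000 UMIs the shares were 2.44% of 1067 Fcer2a-negative cells and 0.68% of 147 T cells. With all UMIs kept, the T cells of old 2 held 2 UMIs of Art3 (3.8 CPM).

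Fah encodes fumarylacetoacetate hydrolase, the last enzyme of tyrosine breakdown. It stood at 3.6 and 5.1 CPM in young and 51.0 and 15.5 CPM in old Fcer2a-negative B cells (log2 difference 2.997 ± 0.61). After thinning, positive cells were 0.266% and 0.169% in young and 3.71% and 1.32% in old pools, and at most 0.444% in T cells. With all UMIs kept, T cells of young 1, young 2, old 1 and old 2 held 1, 4, 9 and 0 Fah UMIs. The level in old 1 T cells was 13.5 CPM, below the 51.0 CPM of old 1 Fcer2a-negative cells. It was close to the 15.5 CPM of old 2 Fcer2a-negative cells and above both young values. Of the other tyrosine breakdown genes, 3 of a list of 7 were tested in B cells and 0 were called by edgeR (1 at an unadjusted p under 0.05, 0 by DESeq2). Fahd1 stood at 3.4 and 3.6 CPM in young and 8.3 and 4.9 CPM in old B cells, and Gstz1 at 4.2, 3.5, 5.4 and 5.1 CPM.

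The secreted products differed between the old pools in opposite directions. Adm encodes the vasodilator peptide adrenomedullin. It stood at 19.1 and 11.2 CPM in young 1 and young 2, 73.9 CPM in old 1 and 5.1 CPM in old 2 Fcer2a-negative cells, so that old 2 was the lowest of all pools. Adm was found in 3.96% of old 1 cells (3.27 to 4.75%) and in 0.745% of old 2 cells, between 0.341% and 1.41%, which includes the shares in both young pools (0.798% and 0.932%). In T cells 3, 1, 2 and 0 cells of young 1, young 2, old 1 and old 2 had an Adm UMI with all UMIs kept, and 1.22% of old 1 T cells did at 2000 UMIs per cell. In Fcer2a-positive cells old 2 had 0 UMIs of Adm in 343 cells, which allows a share of up to 0.875%, against 35 UMIs (16.1 CPM) in old 1. Single cells of old 1 held up to 15 Adm UMIs and 54 of them 5 or more, while no old 2 cell held more than 2. Without old 1 the log2 difference in Fcer2a-negative cells was -1.45 in place of 1.48 ± 0.97. Of the adrenomedullin receptor genes and relatives, 4 of a list of 7 were tested in B cells and 0 were called by edgeR (0 at an unadjusted p under 0.05, 0 by DESeq2). Calcrl, the receptor, lay between 3.0 and 9.0 CPM in all pools.

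Jchain stood at 6.3 CPM in young 1, 89.9 CPM in young 2, 28.9 CPM in old 1 and 114 CPM in old 2 Fcer2a-negative B cells. The high value of young 2 rested on 2 cells with 10 or more UMIs each, 1 of them with 238, which held 97.5% of its Jchain UMIs. Without these cells young 2 stood at 2.3 CPM, and old 2, where 7 such cells held 41.4% of the UMIs, at 67.6 CPM. Shares of positive cells set the ages apart more plainly: 0.443% (0.144 to 1.03%) and 0.424% (0.138 to 0.986%) in young, 2.34% (1.81 to 2.97%) in old 1 and 4.72% (3.59 to 6.07%) in old 2. In T cells the shares were 0.412% in young 2 and 1.17% in old 2, with none in young 1 and old 1. In young 2 the B cell and T cell shares were alike (0.424% and 0.412%), although the few cells rich in Jchain were B cells.

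The B gate also takes in cells that hold RNA of other blood cells. Leaving out B cells with 2 or more UMIs over the platelet list or over the monocyte list removed 75 and 215 young cells, 1926 of old 1 and 576 of old 2. The cells left out were deeper (median 4390.5 against 2531 UMIs in old 1). In the remaining B cells Zcwpw1 stood at 30.6 and 29.5 CPM in young and 210 and 170 CPM in old pools, Ahnak2 at 18.3, 7.1, 174 and 60.8 CPM, and Nacc2 at 7.8, 6.2, 146 and 38.1 CPM. These old values stayed above the young ones, although Zcwpw1 in old 1 was 349 CPM with all B cells. Adm stood at 13.04, 6.4, 22.2 and 3.7 CPM, so that its old 1 level was 22.2 in place of 65.2 CPM. Jchain in young 2 went from 52.2 to 9.5 CPM, and both old pools (32.0 and 57.1 CPM) then lay above both young ones.

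The 10 genes were detected together in some cells. At 1000 UMIs per cell, 9.04% and 5.85% of young and 47.4% and 29.0% of old Fcer2a-negative B cells had a UMI of at least 1 of the genes. In Fcer2a-positive cells these shares were 2.88%, 2.82%, 14.8% and 9.33%, and in T cells 1.99%, 2.75%, 5.78% and 2.34%. Cells with 3 or more of the genes numbered 3 and 3 in young, 127 in old 1 (4.57%) and 13 in old 2 (1.08%) Fcer2a-negative cells. No T cell did so, which allows up to 0.331% in young 1 and up to 1.75% in old 2. No cell held more than 4 at this depth. With cells thinned to 2000 UMIs and shallower cells left out, the shares with 3 or more were 2.08% and 1.11% in young and 18.8% and 5.15% in old Fcer2a-negative cells, and no T cell of any pool did so. Young blood therefore held a few such B cells too, 13 of 625 and 7 of 629 at this depth.

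**Figure D2:**
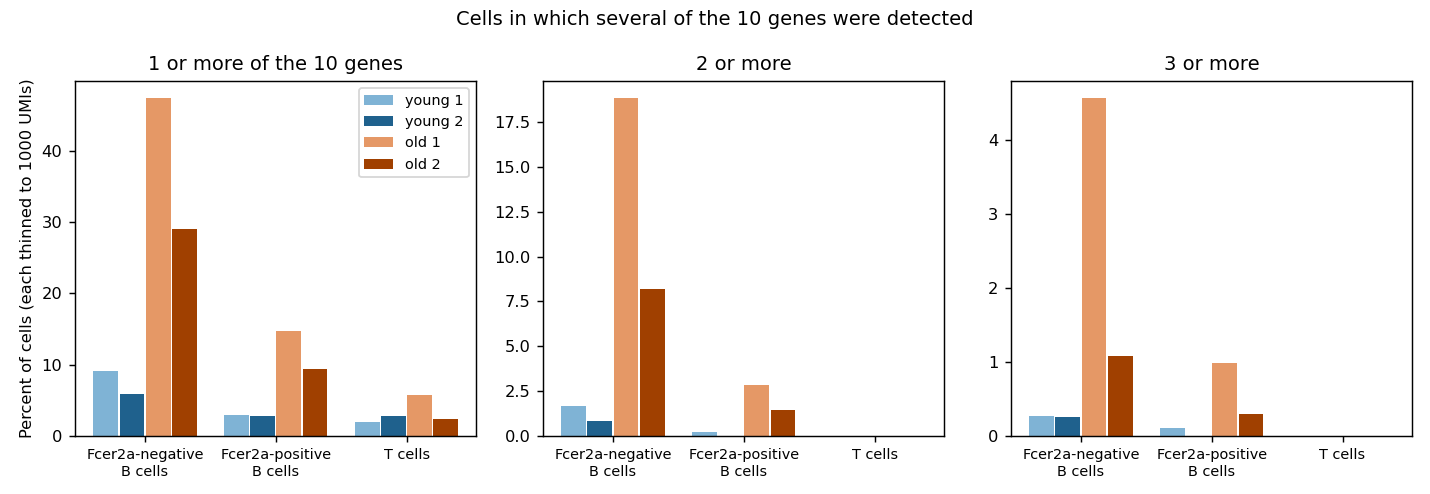
Percent of Fcer2a-negative B cells, Fcer2a-positive B cells and T cells in which at least 1, 2 or 3 of the 10 genes had a UMI, per pool, with each cell thinned to 1000 UMIs. Old Fcer2a-negative cells stood highest in each panel (47.4% and 29.0% with at least 1 gene), and 3 or more genes were found in no T cell.

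Which of the genes made up such cells is given for each old pool. In old 1, Zcwpw1 was positive in 70.9% of the 134 B cells with 3 or more of the genes, Ahnak2 in 58.2%, Nacc2 in 51.5% and Bhlhe41 in 48.5%, with Adm in 23.1% and Jchain in 12.7%. In old 2, Zcwpw1 was positive in 85.7% of 14 such cells, Ahnak2 and Jchain each in 57.1%, Bhlhe41 in 21.4% and Adm in none. Whether the pools differed in this was not tested.

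Pairs were compared at 2000 UMIs per cell among Fcer2a-negative cells, 2380 in old 1 and 1067 in old 2, as the share of cells with a second gene among cells with and without a first. In old 1, Zcwpw1 was found in 66.7% (59.5 to 73.3%) of 192 Adm-positive cells and in 27.2% (25.3 to 29.1%) of Adm-negative cells. The reverse ratio, Adm in Zcwpw1-positive over Zcwpw1-negative cells, was 4.58 (128 cells with both), the largest among pairs with 5 or more such cells in this pool. Nacc2, by contrast, was found in 19.8% (14.4 to 26.1%) of Adm-positive and 25.8% (24.0 to 27.7%) of Adm-negative cells, and these intervals overlap. Ahnak2 was found in 44.2% of Nacc2-positive and 26.1% of Nacc2-negative cells of old 1, a ratio of 1.69. Cd59a was found in 7.81% of Nacc2-positive against 3.88% of Nacc2-negative cells.

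In old 2 the strongest pairings were with Jchain and Ahnak2. Art3 was found in 8.97% (3.68 to 17.6%) of 78 Jchain-positive and 1.92% (1.16 to 2.98%) of Jchain-negative cells, with 7 cells positive for both. Lmo7 was found in 14.1% (7.26 to 23.8%) against 5.16% (3.86 to 6.72%), and Zcwpw1 in 37.2% (26.5 to 48.9%) against 18.0% (15.7 to 20.5%). Nacc2 was found in 6.41% of Jchain-positive and 9.50% of Jchain-negative cells, with overlapping intervals. Zcwpw1 was also more frequent in Ahnak2-positive cells, 39.8% against 16.6%, as it was in old 1 (40.4% against 25.9%). In the young pools the same pair gave 38.1% of 21 cells against 3.64% in young 1 and 55.6% of 9 cells against 2.1% in young 2. Bhlhe41 showed little pairing in old 2, where Ahnak2 was found in 12.8% of Bhlhe41-positive and 11.9% of Bhlhe41-negative cells. Cells of a pool share their library, and cells positive for a gene had larger totals before thinning, for Zcwpw1 in old 1 a median of 5532 UMIs (at 1000 UMIs per cell) against 3437 in negative cells.

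**Figure D3:**
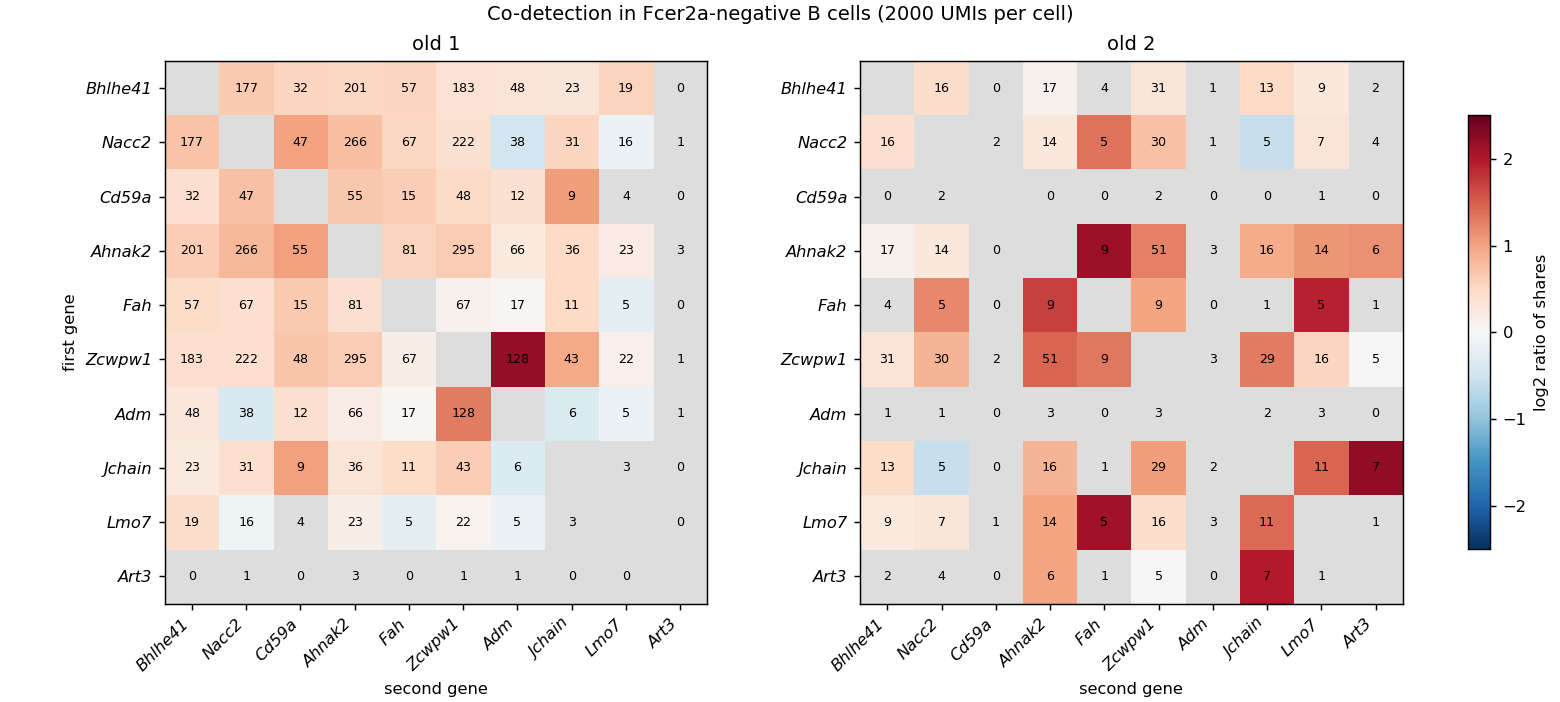
Co-detection in Fcer2a-negative B cells of old 1 and old 2, each cell thinned to 2000 UMIs. Colour is the log2 ratio of the share with the second gene (column) among cells with and without the first gene (row), numbers are cells with both genes, and grey marks the diagonal and pairs with fewer than 5 such cells. Adm and Zcwpw1 stand out in old 1 (128 cells) and Jchain with Art3 and Lmo7 in old 2 (7 and 11 cells).

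Other genes of related cell states were compared from lists, with UMIs summed per pool and the quasi-likelihood test of edgeR, with TMM scaling and p-values adjusted over all genes by Benjamini-Hochberg (threshold 0.05). The 10 genes are not counted in the lists. The lists were chosen with earlier results of these data known, so their calls are not an independent test. Genes of a B-1 cell list were higher in old B cells. Of 12 tested, 7 were called higher and 0 lower, where 2.89% of all genes tested were called higher and 4.09% in either direction, and the list's median log2 difference was 1.70 against 0.02 over all genes. Cd9, a tetraspanin, stood at 26.7 and 27.1 CPM in young and 294 and 207 CPM in old B cells (log2 3.28 ± 0.18, adjusted p = 0.0022). Ctla4, an inhibitory receptor, stood at 5.1, 2.9, 22.6 and 64.6 CPM (3.50 ± 0.61, adjusted p = 0.032). Plscr1, a phospholipid scramblase, rose by 2.91 ± 0.35 (adjusted p = 0.011) and Fcrl5, a receptor for IgG, by 2.73 ± 0.26 (adjusted p = 0.0055). Cd5 itself, a classical surface marker of B-1a cells, lay at 3.7 and 4.2 CPM in young and 2.7 and 4.2 CPM in old B cells and did not pass the test.

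**Figure D4:**
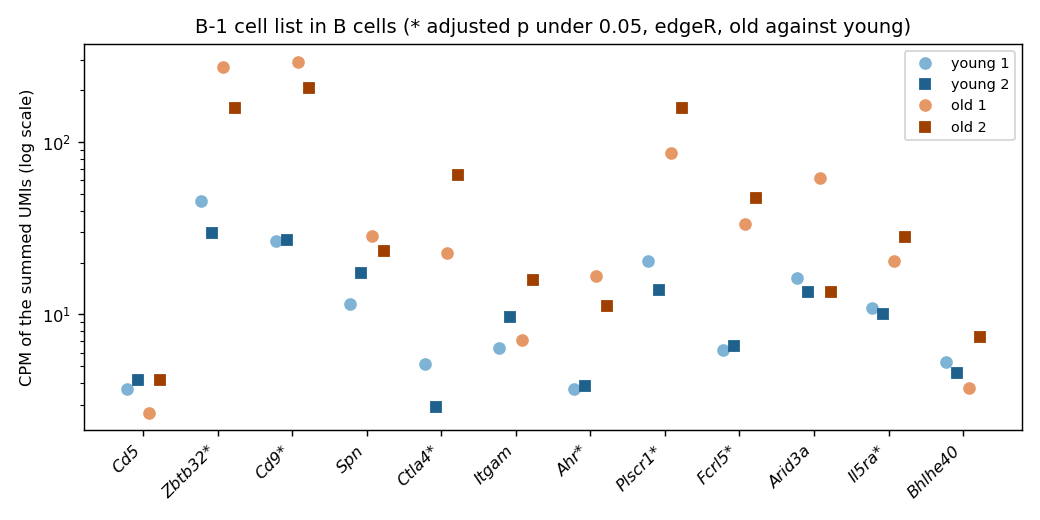
CPM (log scale) of the 12 genes of the B-1 cell list in B cells of each pool, with an asterisk where edgeR's adjusted p for old against young was under 0.05. The 7 genes with an asterisk had both old pools above both young pools, for Cd9 at 294 and 207 against 26.7 and 27.1 CPM, while Cd5 lay between 2.7 and 4.2 CPM in all pools.

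The age difference of this list was present in both gates. In Fcer2a-negative cells 5 of 12 genes were called higher and 0 lower (1.58% and 0.751% of all genes), among them Cd9 (log2 3.05 ± 0.19, adjusted p = 0.0031) and Zbtb32 (2.32 ± 0.30, adjusted p = 0.017), a zinc finger repressor. In Fcer2a-positive cells 4 of 12 were called higher (1.79% of all genes, 2.09% in either direction): Cd9, Plscr1, Zbtb32 and Fcrl5, with log2 differences between 1.94 and 3.19. Without the B cells holding platelet or monocyte UMIs the calls were 6, 4 and 3 of 12 in B cells, Fcer2a-negative and Fcer2a-positive cells. Without young 1 they were 3, 5 and 5, without young 2 4, 2 and 5, without old 1 8, 7 and 5, and without old 2 9, 8 and 4. With each cell thinned to 1000 UMIs before gating, 1 of the 7 genes then tested in Fcer2a-positive cells was called. Cd9 is also abundant in platelets, whose RNA was higher in old B cells. The part of that RNA in its level was not tested beyond leaving those cells out.

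Between the gates, 10 of the 12 B-1 genes were higher in Fcer2a-negative than in Fcer2a-positive cells of the same pools and 0 were lower (3.95% of all genes were called higher and 6.08% in either direction, with the pool as a block). Zbtb32 stood at 64.7, 37.2, 302 and 180 CPM in Fcer2a-negative cells of young 1, young 2, old 1 and old 2 and at 23.6, 19.8, 98.3 and 62.7 CPM in Fcer2a-positive cells (log2 1.46 ± 0.11, adjusted p = 2.1e-09). The difference had one direction in all 4 pools. Itgam, an integrin subunit, was higher by 1.74 ± 0.27 (adjusted p = 1.0e-04), Ctla4 by 1.65 ± 0.21 (adjusted p = 5.7e-06) and Ahr by 1.47 ± 0.26 (adjusted p = 3.9e-04). Without the B cells holding platelet or monocyte UMIs 8 of 12 were called, in old pools alone 10 and in young pools alone 4. With thinned cells 6 were called and with no block for the pool 0. The 10 genes studied lay on the same side: 8 of them had the higher level in Fcer2a-negative cells of every pool (13.5% of all genes did), and Cd59a and Art3 were mixed. Their log2 differences ran from 0.44 ± 0.42 (Art3) to 2.33 ± 0.28 (Jchain) and are part of what chose them.

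S100, annexin and actin-binding genes moved in the same comparisons. In old against young B cells 4 of 17 rose and 0 fell. They were Ahnak (log2 1.43 ± 0.28, adjusted p = 0.047), S100a11 (1.01 ± 0.13, adjusted p = 0.013), Lgals3 (1.01 ± 0.19, adjusted p = 0.044) and Anxa5 (0.87 ± 0.13, adjusted p = 0.023). The count was 0 without young 1, 1 without young 2, 9 without old 1, 15 without old 2 and 2 without the cells holding platelet or monocyte UMIs. Between the gates 14 of 17 were higher in Fcer2a-negative cells. S100a6, a calcium-binding protein, stood at 890, 649, 3482 and 1236 CPM in Fcer2a-negative and at 423, 260, 1083 and 607 CPM in Fcer2a-positive cells (log2 1.30 ± 0.07, adjusted p = 1.2e-11). Anxa2 was higher by 1.38 ± 0.12 (adjusted p = 1.6e-08). The count was 9 without old 2 and 0 with no block.

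Some follicular genes were lower. In old B cells 3 of 11 fell and 0 rose (1.2% of all genes were called lower): Cr2, the complement receptor CD21 (log2 -2.15 ± 0.16, adjusted p = 0.0036), Fcer2a and Bach2 (-0.68 ± 0.14, adjusted p = 0.047). Nothing is read from the call of Fcer2a, whose absence is part of what chose the 10 genes. Without old 1, 5 fell and 1 rose, and without old 2, 8 fell. In Fcer2a-positive cells 1 of 11 fell, with a list median of -0.04 on the log2 scale. Between the gates 6 of 10 were lower in Fcer2a-negative cells (2.12% of all genes), among them Ccr7, a chemokine receptor. Ccr7 stood at 239, 261, 50.5 and 131 CPM in Fcer2a-negative and at 291, 315, 189 and 303 CPM in Fcer2a-positive cells (log2 -0.87 ± 0.16, adjusted p = 5.2e-04). Without old 2, or with no block, 0 of these 10 were called. Of 6 transitional genes, Vpreb3 (log2 -1.44 ± 0.11, adjusted p = 0.0036) and Sox4 fell and Cd24a rose in old B cells, and 1 of these calls was left without young 1 or without young 2.

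Of the plasma cell and secretory genes, 3 of 16 rose in old B cells, which were Prdm1, the plasma cell repressor Blimp-1 (2.2 to 3.2 CPM in young and 7.9 to 9.1 CPM in old pools, log2 1.73 ± 0.29, adjusted p = 0.029), Creld2 (1.27 ± 0.19, adjusted p = 0.021) and Mzb1 (1.01 ± 0.11, adjusted p = 0.0093). This count was 0 without young 1 and 0 without young 2, 5 without old 1 and 4 without old 2, by the same test. Xbp1 stood at 55.4 and 64.8 CPM in young and 44.8 and 39.4 CPM in old B cells and did not pass. Sdc1, a plasma cell marker, went down, from 8.8 and 7.3 CPM in young to 0.96 and 2.5 CPM in old B cells. It did not pass there (adjusted p = 0.060, edgeR). In Fcer2a-positive cells 1 of 15 genes of the list was called higher and 1 lower (1.79% and 0.299% of all genes). The lower one was Sdc1 (log2 -2.31 ± 0.52, adjusted p = 0.031). Of 12 age-associated B cell genes 1 rose, the costimulatory ligand Cd80 (log2 2.19 ± 0.31, adjusted p = 0.018), a count that was 0 without young 1, 0 without young 2, 4 without old 1 and 2 without old 2. At an unadjusted p under 0.05 by edgeR, 5 of the 12 were higher and 1 lower. Tbx21, which with Itgax defines those cells, stood at 2.3 and 2.2 CPM in young and 1.8 and 4.0 CPM in old pools. Itgax stood at 0.53 and 0.91 CPM in young (3 and 5 UMIs) and 1.9 CPM in each old pool. Neither passed the test.

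Of 6 complement regulators and receptors, Cd59b, the neighbour of Cd59a in sequence family, rose in old B cells (1 and 2 UMIs in young against 57 and 16 in old pools, log2 3.56 ± 0.64, adjusted p = 0.036), and Cr2 and Cd55 fell. The Cd59b and Ahnak calls were lost without either young pool and without the cells holding platelet or monocyte UMIs. Reads of Cd59a and Cd59b may be divided uncertainly between these near relatives. Of 9 relatives of the 10 genes, Cd59b and Ahnak were called. Bhlhe40, the closest relative of Bhlhe41, lay at 5.3 and 4.6 CPM in young and 3.7 and 7.4 CPM in old B cells and did not pass. Of 13 clock genes 0 were called by edgeR (1 at an unadjusted p under 0.05, 0 by DESeq2), and of 12 hypoxia genes 1 fell, Pdk1 (log2 -0.78 ± 0.15, adjusted p = 0.040), a call lost without either young pool. Markers of other cells moved as well: 5 of 7 platelet genes rose, 4 of 5 NK and 1 of 5 T cell genes fell. The NK list summed to 113 and 121 CPM in young and 33.5 and 28.1 CPM in old B cells and the T cell list to 58.2, 51.3, 29.9 and 40.2 CPM.

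The lists were then read in B cells by how many of the 10 genes were detected at 1000 UMIs per cell, as a description within each pool. Cells with 0 of the genes held 133 and 128 CPM of the B-1 list in young and 660 and 609 CPM in old pools. In cells with 1 or 2 of the genes the sums were 425 and 368 CPM in young and 1030 and 998 CPM in old pools, higher in each of the 4 pools. S100a6 stood at 513, 368, 2054 and 868 CPM in cells with 0 and at 2134, 1842, 4124 and 1637 CPM in cells with 1 or 2 of the genes. Fcer2a went the other way, from 278, 258, 131 and 99.8 CPM to 80.4, 95.8, 21.6 and 18.6 CPM. The absence of Fcer2a is part of what chose the 10 genes, so nothing is read from this fall. Platelet RNA was 669 and 433 CPM in old cells with 0 and 685 and 351 CPM in old cells with 1 or 2 of the genes. Mzb1 stood at 519, 484, 812 and 852 CPM in cells with 0 and at 885, 865, 1229 and 1345 CPM in cells with 1 or 2 of the genes. Cells with 3 or more of the genes numbered only 4 and 3 in the young pools. Old cells in which 0 of the genes were detected held more of the B-1 list than young cells with 1 or 2 of them. Detection depended on depth: 3 or more genes were found in 3.84% of old 1 and 0.903% of old 2 B cells after thinning. With all UMIs kept these shares were 35.0% and 19.0%. Cells with 0 detected may therefore still hold transcripts of the genes. The list also includes Cd9, and the part of platelet RNA in these sums was not tested.

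**Figure D5:**
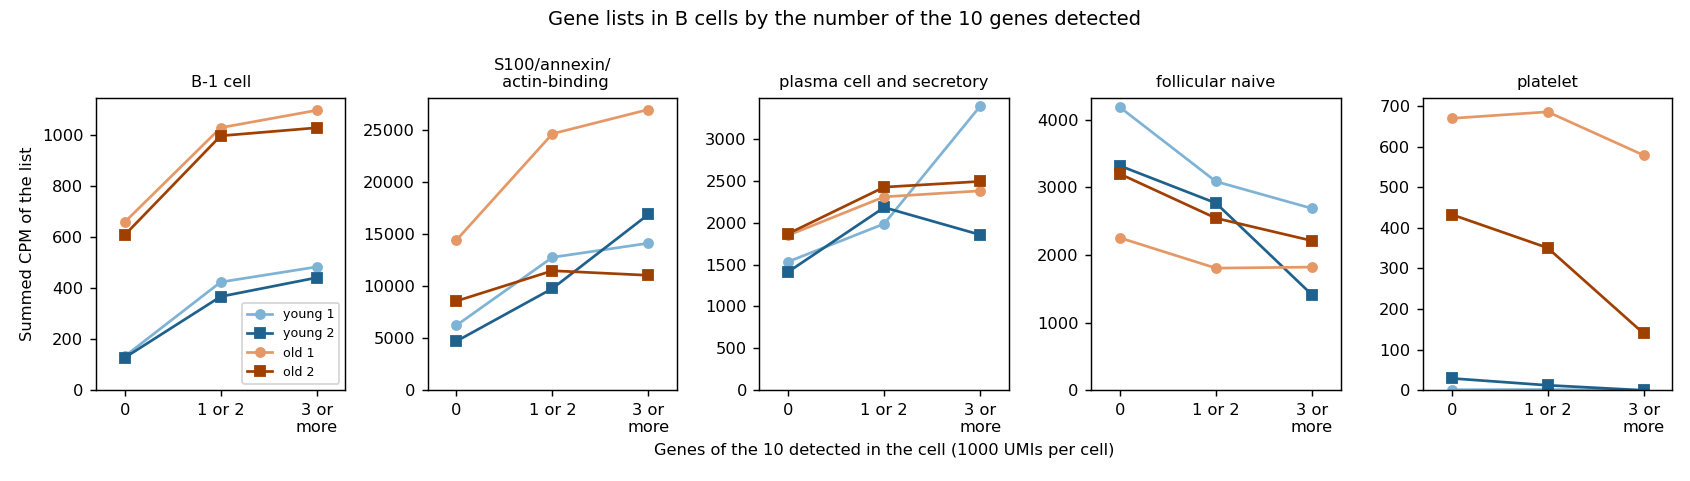
Summed CPM of 5 gene lists in B cells with 0, with 1 or 2, and with 3 or more of the 10 genes (each cell thinned to 1000 UMIs for this division), per pool. The B-1 list was higher with 1 or 2 genes than with 0 in every pool (425 and 368 against 133 and 128 CPM in young, 1030 and 998 against 660 and 609 CPM in old), and the young points at 3 or more rest on 4 and 3 cells.

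The non-member genes whose detection went most closely with each of the 10 were found by the phi coefficient over B cells of a pool at 1000 UMIs, averaged over pools in which both genes had at least 10 positive cells. All coefficients were weak. S100a6 ranked first for Bhlhe41 (mean phi 0.14 over 4 pools, 0.05 to 0.25), Nacc2 (0.12) and Ahnak2 (0.17), and for Zcwpw1 it reached 0.15 over 4 pools. Chit1 and Gnb3 had higher means for Zcwpw1 (0.17 and 0.16), but over 1 and 2 pools in which S100a6 was higher (0.21 in old 1 and in old 2). Zbtb32 ranked second for Nacc2 (0.11 over 4 pools). For Adm the leading genes were Krt8 (0.17), Stxbp6 (0.17) and F11r (0.13), which could be judged in old 1 alone. For Jchain, Cyp11a1 reached 0.24 in old 2 and 0.00 in old 1. C1qa led for Fah (0.14) and Cep162 for Art3 (0.19), each judged in old 2 alone. In old 1 alone, 2610002M06Rik led for Cd59a (0.098) and Hus1b for Lmo7 (0.094). Just inside the B gate, at 3 Cd79a UMIs, 3.57%, 8.63%, 25% and 10.6% of cells of young 1, young 2, old 1 and old 2 had at least 1 of the 10 genes at 1000 UMIs. Just outside, at 2 Cd79a UMIs, 5.36%, 6.52%, 26.9% and 5.56% did. In old 1 both lay below the 40.8% of all B cells. By Fcer2a, which is part of what chose the genes, the share in old 1 was 47.4% at 0 UMIs, 16.2% at 1 and 12.3% at 2 or more.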

How the data were processed

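Per the labels and methods, the authors used Cell Ranger and mm10 for UMI counting, combined the duplicates of each age, filtered cells in Seurat 2.3.0 and deposited whole-number counts per gene and cell. The sources used here give neither the annotation release nor whether the combination equalised depth. Pools were taken from the deposited list of cells. UMIs were summed per pool and gate and tested with edgeR 4.0.16 in R 4.3.3 (genes with at least 10 UMIs over the sums), with DESeq2 1.42.0 as an alternative. A run on simulated counts required only that changed genes that were called had the right direction. It set no condition on false calls. Levels are CPM over all UMIs of the gate. T cells had a Cd3 sum of 2 or more and no Cd79a. Shares were taken after thinning each cell to 1000 UMIs (seed 1), which every cell reached. Intervals are 95% and cover counting error only. No doublet caller was run, and leaving out the 5% of B cells with the most UMIs was tried instead.

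The 10 genes and all lists were chosen with earlier results of these data known. Genes named are the 10, defining markers, and genes among the 3 with the highest phi per member. Up to 4 genes per list and comparison with the largest called log2 difference are also named (both old pools on one side in age comparisons). Immunoglobulin genes were not analysed here. The values of 1 follicular gene are not reported here. Replicate numbers do not pair the pools across ages. Python 3.11.15, scipy 1.17.1 and pandas 2.3.3 were used.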

Additional observations from a re-analysis of the deposited data

How the results depend on the processing

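Counts of genes called depended on the settings. For B cells (503 genes with the settings used above) the count was 788 with no filter, 209 with the 10% detection rule, 783 without the 5% of B cells with the most UMIs, 287 without cells holding platelet or monocyte UMIs and 923 with the replicate number as a block, and 77 to 2574 when each pool was left out in turn (77 without young 1, 153 without young 2, 1296 without old 1, 2574 without old 2). For Fcer2a-negative cells (279) these were 663, 121, 480, 177 and 1186 with the block, 454 by DESeq2 and 62 to 1349 with a pool left out. For Fcer2a-positive cells (216) they were 396 with no filter, 11 with the detection rule, 42 without platelet or monocyte UMIs, 75 by DESeq2, 41 with cells thinned before gating (chosen after seeing the data) and 190 to 443 with a pool left out. Between the gates (747) they were 30 with the detection rule, 203 by DESeq2, 1388 with a Cd79a minimum of 1, 453 without platelet or monocyte UMIs, 238 with thinned cells, 305 in young pools alone (chosen after seeing the data), 178 to 861 with a pool left out and 0 by edgeR with no replicate block (830 at an unadjusted p under 0.05). The cause was not tested. A pool left alone in its age was taken to vary like the other age. Same-numbered pools shared little (correlations of deviations 0.06, 0.054 and -0.053), so numbers do not pair them.

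The log2 differences that changed sign were those of Adm without old 1 (-1.13 in B cells, -1.45 in Fcer2a-negative cells, -5.82 in Fcer2a-positive cells, where old 2 had 0 UMIs and the size depends on the prior count), Jchain without old 2 (-0.067 and -0.74 in B and Fcer2a-negative cells) or young 1 (-0.31 in Fcer2a-negative cells), and Art3 without old 2 (-0.45, -0.32 and, between the gates, -0.22). Between the gates Art3 was also negative with thinned cells (-0.21) and, with Cd59a, in young pools alone (-0.26 and -0.27). With a pool left out in turn, the highest values of these were 2.75, 2.31 and 2.26 for Adm in B, Fcer2a-negative and Fcer2a-positive cells, 4.14 and 3.63 for Jchain in B and Fcer2a-negative cells, and 3.49, 4.47 and, between the gates, 0.65 for Art3. All other values of the 10 genes kept their direction under the 561 combinations tried, and 54 moved by more than the spread between pools. Requiring 2 or more UMIs gave no value for Cd59a and Art3.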
